A study of Mus musculus with 12 samples.

Results

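The genes described here are 10 mouse genes of the ATF4 stress response, Atf4, Atf5, Atf3, Ddit3, Nupr1, Trib3, Chac1, Sesn2, Fgf21 and Gdf15, measured by RNA sequencing in 12 libraries of cultured mouse embryonic fibroblasts from the C57BL/6 strain. They were taken by symbol, 10 of the 48709 gene identifiers counted, and all 10 were among the 14408 genes left by the filter on low counts. The list was selected on known ATF4 biology together with earlier results of these libraries, namely the log2 genotype difference in the hypoxia response, in which Fgf21 and Trib3 stood out. That difference and the 4 comparisons between pairs of groups are therefore given for these genes as values without a test. Tests are given for the effect of hypoxia averaged over the genotypes and for the effect of genotype averaged over the conditions. In this balanced design these averages weigh the 4 groups differently from that difference. They still come from the same libraries and the same fit, so their p-values are not fully independent of the selection. The earlier results also held the genotype comparison in normoxia, which is part of the averaged genotype effect.

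The cells were wild type (WT) or labelled TAZKo, which the submitters describe as tafazzin-deficient. Tafazzin, encoded by Taz, remodels the mitochondrial membrane lipid cardiolipin, and neither its protein nor the kind of lesion is part of these data. Each genotype was kept in normoxia or exposed to hypoxia for 24 h in a hypoxia workstation, with 3 libraries in each of the 4 groups. All were grown in DMEM with 10% fetal bovine serum, and how low the oxygen was kept is not given in the sources used here. Nothing in the labels says whether the 3 libraries of a group came from separate cultures or clones, so p-values measure the spread between these libraries, which may be technical.

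ATF4 is a transcription factor whose messenger RNA is translated efficiently when the initiation factor eIF2α is phosphorylated, the event that defines the integrated stress response. Kinases that sense amino acid shortage, unfolded protein in the endoplasmic reticulum, double-stranded RNA or mitochondrial and haem stress converge on that step. ATF4 then raises transcription of genes for amino acid supply, of partner and feedback factors such as CHOP (the product of Ddit3) and TRIB3, and of the secreted hormones FGF21 and GDF15, which are widely used as markers of mitochondrial dysfunction.

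ATF4 binds as a dimer with C/EBP family proteins to a composite element whose core is commonly written TGATGCAA, or TTGCATCA on the other strand. The RefSeq promoter windows of GRCm38 (250 bases before to 50 bases after a start site, both strands searched) held these letters for 4 of the 10 genes, or 40%. Among all 27025 genes with a window, 279 did, or 1.03%, and among all 32851 windows 0.895%. The 60 bases around the match in each of these genes are printed 5′ to 3′ on the gene's strand, with the 8 matching bases in capitals. The 8 bases are alike because they were searched for, and the bases around them were not compared.

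Atf3: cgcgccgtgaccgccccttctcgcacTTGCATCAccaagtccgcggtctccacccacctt
Chac1: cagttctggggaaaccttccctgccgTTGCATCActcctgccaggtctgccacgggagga
Fgf21: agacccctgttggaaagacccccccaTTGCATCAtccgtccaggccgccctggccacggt
Nupr1: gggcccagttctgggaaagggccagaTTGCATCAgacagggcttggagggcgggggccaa

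These lie at chr1:191183410-191183469 (minus strand), chr2:119351023-119351082 (plus strand), chr7:45615596-45615655 (minus strand) and chr7:126625547-126625606 (minus strand). All 4 matches read TTGCATCA on the gene's own strand and began before the start site, by 110 bases in Atf3 and in Nupr1, 139 in Fgf21 and 193 in Chac1. With the wider spelling TGATGNAA, which contains the narrow one, Trib3 joined them through TTACATCA starting 14 bases after its start site, and the share became 50% of the 10 genes against 4.51% of all genes. A match describes letters in a window and is not a binding measurement, and the 10 genes were chosen on known ATF4 biology.

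Library totals ran from 21039451 to 31204510 counts, so that the floor of 3 counts used here was worth 0.0961 to 0.143 CPM (counts scaled to a common library total). Replicates were close, with Spearman correlations of 0.989 to 0.998 within groups and a biological coefficient of variation of 8.6%. WT normoxia library 1 stood apart, with 0.92% of counts on mitochondrial genes against 1.23% to 1.93% in the others. The summed fibroblast markers lay at 9310 to 12400 CPM, carried by Fn1, Col1a1 and Vim. Col1a2 stayed at 1.51 to 5.92 CPM, and Thy1 never exceeded 8 counts. Single markers moved in opposite ways between genotypes, 4 higher and 2 lower in TAZKo of the 6 tested in normoxia, with Col1a1 at 1140 to 1160 CPM against 2550 to 3290 in WT and Pdgfrb at 98.1 to 111 against 45 to 53.5. Vim stood at 1200 to 1750 CPM in normoxia and 2910 to 3580 in hypoxia, and the part of such shifts in the levels of the 10 genes was not tested. Of the 9 markers of other cell types, Adgre1 and Pou5f1 were at 0 throughout, and the summed level of 100 to 154 CPM came mostly from Krt18. Nanog lay at 0.874 to 2.43 CPM. Krt8, Pecam1 and Epcam reached 31, 20 and 17 counts, and Cdh5 and Ptprc at most 2. Taz transcript was not lower but higher in the libraries labelled TAZKo, by 0.36 on the log2 scale averaged over conditions (SE 0.056, edgeR adjusted p = 0.000167). It stood at 39.8 to 45.8 CPM against 32.6 to 38 in WT in normoxia and 32.8 to 35 against 23.5 to 26.4 in hypoxia. In bulk RNA, fewer cells making a transcript and less of it per cell cannot be told apart.

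Across the 4 groups the 10 genes fell into a few shapes. Ddit3, Nupr1 and Trib3 stood stepwise higher from WT normoxia through TAZKo normoxia and WT hypoxia to TAZKo hypoxia. Atf4, Chac1 and Sesn2 were lowest in WT normoxia and closer together in the other 3 groups. Atf3 and Fgf21 peaked in WT hypoxia, and Gdf15 followed hypoxia. Atf5 differed more by genotype than by hypoxia, and was lower in hypoxic than in normoxic TAZKo. The plot of CPM by library shows these shapes, and the paragraphs after it take the genes by role, first the transcription factors, then the intracellular effectors, then the secreted factors.

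**Figure D1:**
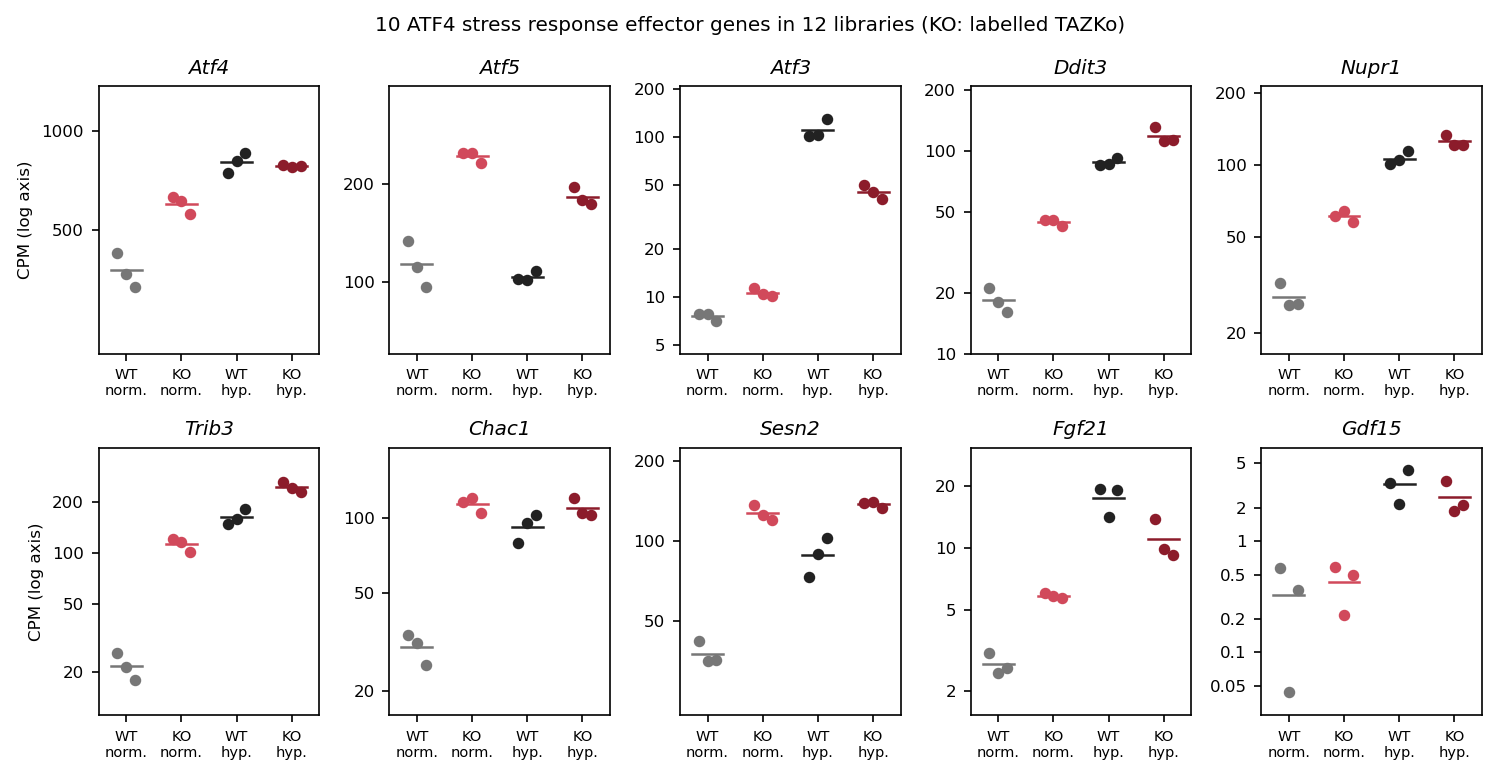
CPM of each of the 10 genes in every library (points, log axis) with the mean of each group of 3 (lines), for WT and TAZKo (KO) cells in normoxia and hypoxia. Trib3 steps up through all 4 groups from a mean of 21.8 to 243.5 CPM, whereas Atf3 is highest in WT hypoxia, at 100.4 to 129.6 CPM.

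Atf4 (ENSMUSG00000042406, chr15:80255184-80257541) encodes the factor itself, and its transcript level is only 1 part of its control, since its regulation is largely translational. In normoxia it stood at 426, 367 and 336 CPM in WT and at 631, 611 and 558 in TAZKo. After hypoxia the WT libraries held 744, 813 and 858 CPM and the TAZKo libraries 789, 777 and 781. The normoxic WT libraries were below all others, and the hypoxic groups of both genotypes overlapped. Atf4 was thus 1.6-fold higher in TAZKo in normoxia (log2 0.67, SE 0.083) and level with WT in hypoxia (log2 -0.04, SE 0.082). Averaged over genotypes it rose with hypoxia by a log2 value of 0.74 (SE 0.059, edgeR adjusted p = 1.3e-07), and averaged over conditions it was higher in TAZKo by 0.32 (SE 0.058, edgeR adjusted p = 6e-04).

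Atf5 (ENSMUSG00000038539, chr7:44812256-44816658), a related factor known for inducing mitochondrial protein quality control genes, was the one member that fell with hypoxia. Its normoxic values were 134, 112 and 97.1 CPM in WT and 248, 248 and 231 in TAZKo. Its hypoxic values were 102, 102 and 108 CPM in WT and 196, 178 and 173 in TAZKo. Every TAZKo library was above every WT library, in both conditions. In WT the 2 conditions overlapped (log2 -0.13, SE 0.095), while in TAZKo all hypoxic libraries were below the normoxic ones (log2 -0.41, SE 0.093). Averaged over genotypes, hypoxic levels were lower at a log2 value of -0.27 (SE 0.066, edgeR adjusted p = 0.00302), and the averaged genotype effect was 0.95 higher in TAZKo (SE 0.067, edgeR adjusted p = 9.97e-08). Of the exonic bases of Atf5, 82 are shared with Nup62 and Il4i1 on the opposite strand, and the strand setting of the counting is not given in the sources used here.

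Atf3 (ENSMUSG00000026628, chr1:191170296-191218039), a stress-induced member of the same family that often acts as a repressor, had a hypoxia response whose fitted size in WT was matched within error only by that of Gdf15. It was counted at 7.87, 7.85 and 7.09 CPM in WT normoxia and 11.3, 10.4 and 10.1 in TAZKo normoxia. In hypoxia it reached 100.4, 102 and 130 CPM in WT but 49.7, 44.9 and 40.7 in TAZKo. TAZKo libraries were thus all above WT in normoxia and all below WT in hypoxia. The 14.6-fold hypoxia response of WT compared with a 4.25-fold response in TAZKo. Averaged over genotypes the log2 rise with hypoxia was 2.98 (SE 0.081, edgeR adjusted p = 2.43e-12). Over both conditions Atf3 was lower in TAZKo, by -0.41 (SE 0.079, edgeR adjusted p = 0.00088), an average of differences of opposite sign, 0.48 (SE 0.123) in normoxia and -1.30 (SE 0.101) in hypoxia.

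Ddit3 (ENSMUSG00000025408, chr10:127290774-127296288) encodes CHOP, a dimerisation partner of ATF4 and C/EBP proteins linked to cell death under prolonged stress. WT libraries read 21.2, 18 and 16 CPM in normoxia and 85.1, 86.6 and 92.5 in hypoxia. TAZKo libraries read 45.7, 45.6 and 42.5 CPM in normoxia and 131, 113 and 113 in hypoxia. No 2 groups overlapped. Ddit3 rose with hypoxia by 1.84 (SE 0.067, edgeR adjusted p = 4.59e-11) and was higher in TAZKo by 0.86 (SE 0.066, edgeR adjusted p = 2.2e-07), both averaged log2 values. The genotype difference was 2.43-fold in normoxia and 1.35-fold in hypoxia. A short stretch of its exons lies opposite those of Mars (68 bases), and 6.09% of its 50-base words occur in another gene model, so a small part of its reads may be shared.

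Nupr1 (ENSMUSG00000030717, chr7:126623249-126630861), which encodes a small stress-induced chromatin protein, had the pattern closest to the average of the 10, with a root mean square distance of 0.1 on the log2 scale over the 12 libraries. In WT it measured 32.2, 26.2 and 26.4 CPM without and 101, 105 and 115 with hypoxia. In TAZKo it measured 61.4, 64.7 and 57.8 CPM without and 134, 122 and 122 with hypoxia. The groups again did not overlap, and the step between the hypoxic genotypes was the smallest, at 1.18-fold. The averaged effects were 1.48 for hypoxia (SE 0.061, edgeR adjusted p = 1.79e-10) and 0.68 for TAZKo (SE 0.06, edgeR adjusted p = 9.22e-07).

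Among the intracellular effectors, Trib3 (ENSMUSG00000032715, chr2:152337422-152344032) encodes a pseudokinase that binds ATF4 and CHOP and restrains them. In normoxia it was at 26, 21.5 and 18 CPM in WT and at 121, 116 and 102 in TAZKo. Under hypoxia it was at 147, 158 and 181 CPM in WT and at 260, 242 and 229 in TAZKo. The 4 groups did not overlap, and the 5.18-fold genotype difference in normoxia exceeded that of every other member, against 1.5-fold in hypoxia. Trib3 rose with hypoxia by 2.0 (SE 0.084, edgeR adjusted p = 2.19e-10) and was higher in TAZKo by 1.48 (SE 0.083, edgeR adjusted p = 1e-08), as log2 averages.

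Chac1 (ENSMUSG00000027313, chr2:119351229-119354381), an enzyme that degrades glutathione, responded to hypoxia in WT but stood nearly level in TAZKo. The WT libraries went from 33.8, 31.3 and 25.7 CPM in normoxia to 79.3, 95.7 and 103 in hypoxia. The TAZKo libraries gave 116, 120 and 106 CPM in normoxia and 121, 105 and 103 in hypoxia. The normoxic WT libraries were the only ones set apart from both TAZKo groups, since the hypoxic WT libraries overlapped with hypoxic TAZKo. Hypoxia went with a 3.07-fold higher level in WT (log2 1.62, SE 0.116) and with 0.96-fold in TAZKo (log2 -0.06, SE 0.11). Averaged over genotypes and conditions, Chac1 rose with hypoxia by 0.78 (SE 0.079, edgeR adjusted p = 1.6e-06) and was higher in TAZKo by 1.08 (SE 0.08, edgeR adjusted p = 1.55e-07).

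Sesn2 (ENSMUSG00000028893, chr4:132492032-132510501), a leucine-binding inhibitor of mTORC1 signalling, had a similar shape. WT had 41.9, 35.3 and 35.5 CPM in normoxia and 73, 89.3 and 102 in hypoxia. TAZKo had 137, 125 and 120 CPM in normoxia and 139, 141 and 133 in hypoxia. TAZKo libraries were above WT in both conditions, and the TAZKo groups overlapped with each other. The hypoxia response was 2.35-fold in WT and 1.08-fold in TAZKo (log2 0.11, SE 0.104). Its averaged rise with hypoxia was 0.68 (SE 0.075, edgeR adjusted p = 3.6e-06) and its averaged TAZKo difference 1.2 (SE 0.075, edgeR adjusted p = 3.24e-08).

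The secreted factors had the lowest CPM of the 10 in all 4 groups, without regard to length. Fgf21 (ENSMUSG00000030827, chr7:45613886-45615490), a hormone of the fasting and mitochondrial stress response, was at 3.09, 2.46 and 2.61 CPM in normoxic WT and 6.05, 5.80 and 5.68 in normoxic TAZKo. With hypoxia it was at 19.3, 14.2 and 19.2 CPM in WT and at 13.8, 9.92 and 9.23 in TAZKo. As with Atf3, all TAZKo libraries were above WT in normoxia (2.15-fold) and below WT in hypoxia (0.621-fold), here with a narrow gap between 13.8 and 14.2 CPM. Fgf21 rose with hypoxia by a log2 value of 1.80 (SE 0.12, edgeR adjusted p = 2.34e-08). Its averaged genotype effect of 0.21 (SE 0.121) did not pass the test (edgeR adjusted p = 0.184).

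Gdf15 (ENSMUSG00000038508, chr8:70629393-70632456), a hormone of the TGF-β superfamily that signals to the hindbrain, was barely detected in normoxia. Its counts there were 13, 1 and 10 in WT and 14, 5 and 16 in TAZKo, which left WT library 2 under the floor of 3 counts. Hypoxia gave 66, 48 and 119 counts in WT (3.30, 2.15 and 4.33 CPM) and 71, 54 and 61 in TAZKo (3.45, 1.87 and 2.12 CPM). Hypoxic libraries were above normoxic ones in both genotypes, and the genotypes overlapped in both conditions. The averaged rise with hypoxia was 2.88 (SE 0.323, edgeR adjusted p = 4.04e-06), while the averaged genotype effect was -0.01 with an SE of 0.469 (edgeR adjusted p = 0.989). A genotype difference in Gdf15 was not detectable at this depth.

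Counted together, 9 of the 10 rose and 1 (Atf5) fell with hypoxia on average, where 30% of all tested genes were called higher and 29.5% lower. With library size alone as the scaling the split of all genes moved from 4319 higher and 4248 lower to 3360 and 5652, with a median log2 shift of -0.10, and the members' calls did not change. On average over conditions 7 were higher in TAZKo and 1 (Atf3) was lower, against 22% and 21.8% of all genes. The members' median was 1.64 for the averaged hypoxia effect and 0.77 for the averaged genotype effect, where the median of all genes was 0.00 for both. Using only the libraries of sequencing lane 4, which leaves single libraries in 2 groups, 3 calls no longer passed although their direction was the same. These were Atf5 with hypoxia (log2 -0.35, edgeR adjusted p = 0.0621), and Atf4 (0.35, edgeR adjusted p = 0.0653) and Atf3 (-0.29, edgeR adjusted p = 0.126) between genotypes.

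The genotype comparison within each condition showed where these averages came from. In normoxia all 10 lay above 0 in TAZKo, by a median of 1.11 on the log2 scale, and in 9 the 3 TAZKo libraries were all above the 3 WT libraries. The value of Gdf15, 0.42 (SE 0.649), became -0.09 without WT normoxia library 2 and 1.0 without library 1. Such separation upward was found in 22% of all genes and downward in 20.9%. In hypoxia the median was 0.24, with 5 genes fully separated upward (Atf5, Ddit3, Nupr1, Sesn2 and Trib3), 2 downward (Atf3 and Fgf21) and 3 overlapping, where 24.3% and 25.8% of all genes separated upward and downward. These counts are descriptions of genes chosen with the difference between the conditions in view.

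**Figure D2:**
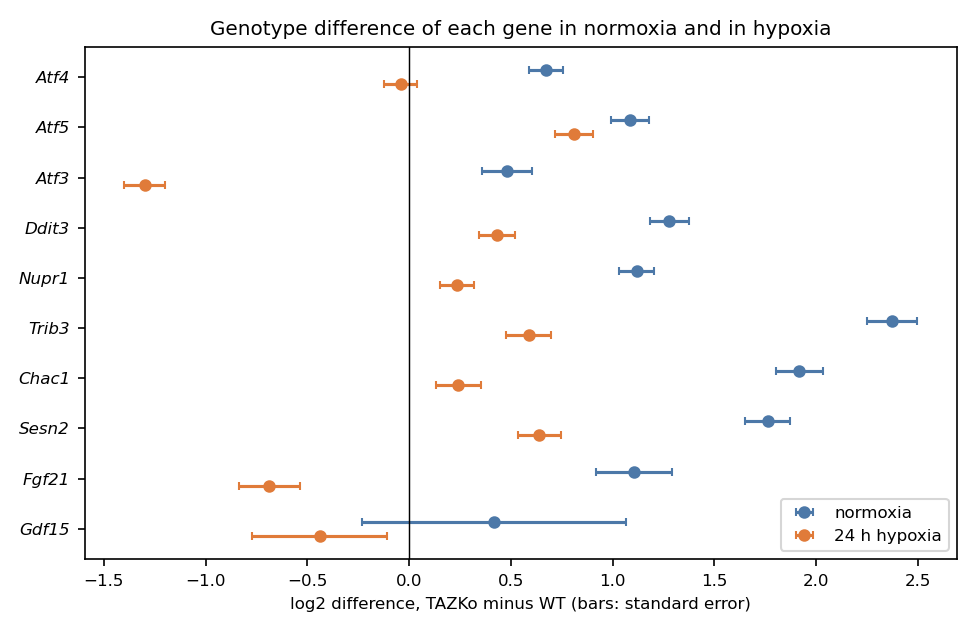
log2 difference between TAZKo and WT for each gene in normoxia (blue) and after 24 h of hypoxia (orange), with standard errors derived from the edgeR test. Every hypoxia point lies to the left of its normoxia point, and Atf3 and Fgf21 cross from 0.48 and 1.10 to -1.30 and -0.69.

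The same values can be read as hypoxia responses. In WT, 9 of the 10 were fully separated upward, with a median log2 response of 2.09, where 28.1% of all genes separated upward and 26.5% downward. In TAZKo, 7 were separated upward and Atf5 downward, with a median of 0.97, beside 30.3% and 30.9% of all genes. The response in TAZKo was below that in WT for all 10, with differences from -0.28 (SE 0.133, Atf5) to -1.79 (SE 0.241, Fgf21), a median of -1.0, and a median over all genes of -0.02. Trib3 (-1.79, SE 0.164), Atf3 (-1.78, SE 0.158) and Chac1 (-1.68, SE 0.159) were as far down as Fgf21 within their errors. Gdf15, at -0.86, had an SE of 0.729. Across all genes 0.722% were called higher and 1.71% lower for this difference, that is 104 and 246 genes, or 140 and 204 with upper quartile scaling.

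A log2 response is a ratio, and 9 of the 10 genes already stood higher in TAZKo in normoxia. On the CPM scale, mean Ddit3 was 69.6 CPM (SE 2.72) higher in hypoxia in WT and 74.2 (SE 6.19) in TAZKo, so that the difference turned from below 0 to 4.6 (SE 6.76). Trib3 was higher by 140 CPM (SE 10.2) in WT and by 130 (SE 10.6) in TAZKo, and Nupr1 by 78.6 (SE 4.48) and 64.7 (SE 4.56). On the CPM scale the gap between genotypes was within its error for Ddit3 and for Trib3 (-10, SE 14.7). For Nupr1 it was -13.9 (SE 6.39), a smaller rise in TAZKo.

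For 5 others the CPM difference was smaller in TAZKo too. Hypoxic Atf4 was higher by 429 CPM (SE 42.4) in WT and 182 (SE 22) in TAZKo, Atf3 by 103 (SE 9.5) and 34.5 (SE 2.61), and Fgf21 by 14.8 (SE 1.7) and 5.15 (SE 1.44). Chac1 differed by 62.3 CPM (SE 7.38) in WT and by -4.6 (SE 7.22) in TAZKo, and Sesn2 by 50.7 (SE 8.75) and 10.5 (SE 5.46). Gdf15 differed by 2.93 CPM (SE 0.647) in WT and 2.05 (SE 0.503) in TAZKo, a gap within its errors. Atf5 differed by -10 CPM (SE 10.8) in WT and by -59.7 (SE 8.87) in TAZKo.

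**Figure D3:**
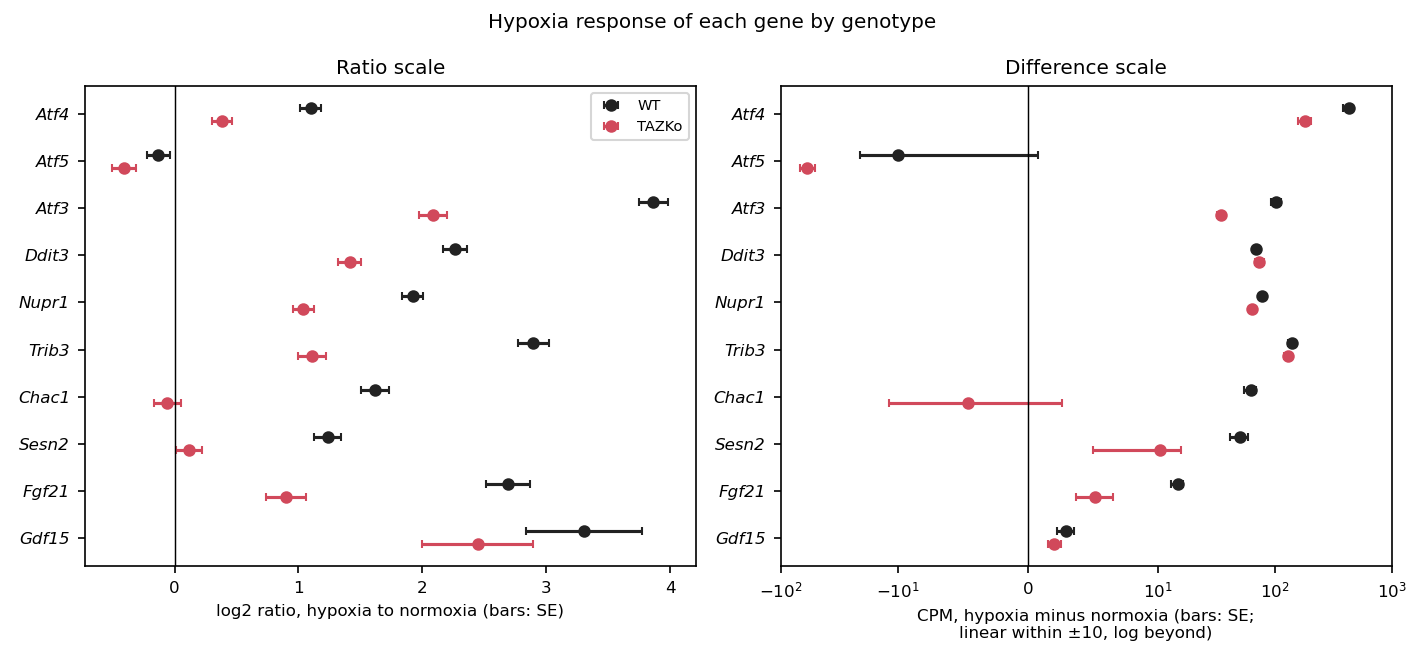
Hypoxia response of each gene in WT (black) and TAZKo (red) as a log2 ratio (left) and as a difference in mean CPM (right, linear within ±10 and logarithmic beyond), with standard errors. On the left all TAZKo points lie below their WT points, and on the right Ddit3 reverses that order (69.6 in WT and 74.2 in TAZKo) and Trib3 comes close (140 and 130).

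Sequencing lane, as written in the names of the deposited tables, was balanced over genotype within each condition but not between conditions. Within lane 4 alone the difference between the responses was smaller than in the full set for all 10 genes, from -1.54 in Fgf21 to -0.05 in Atf5. Lane 5 alone gave -2.01 in Trib3, -1.94 in Atf3 and -0.50 in Atf5, and all 10 remained below 0 in either lane. In WT the hypoxia response of Atf4 was 0.85 in lane 4 and 1.30 in lane 5, that of Chac1 1.22 and 1.94, and that of Atf5 -0.32 and 0.10. For Gdf15 and Fgf21 the lanes lay farther apart in TAZKo, at 3.04 and 2.0 for Gdf15 and 1.19 and 0.74 for Fgf21, than in WT, at 3.33 and 3.16 and at 2.73 and 2.67. Each lane holds 6 of the libraries and leaves some groups with 1, so that lane and library cannot be told apart there.

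Per kilobase of exon, Atf4 was the most abundant of the 10 in every group, at 159.5 CPM per kb (SD 19.3, n = 3) in WT normoxia and 341.3 (SD 24.5, n = 3) in WT hypoxia. In WT normoxia it was followed by Atf5 (57.2, SD 9.2) and Chac1 (18.5, SD 2.55). Nupr1, Sesn2, Ddit3 and Trib3 then lay between 10.3 and 11.2 CPM per kb and could not be ordered beyond their SDs. Atf3 (3.53), Fgf21 (2.86) and Gdf15 (0.176) closed the order.

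Hypoxia reordered the levels per kb. Over all exons Trib3 moved up to the second place, at 76.3 CPM per kb (SD 8.1) in WT and 115 (SD 7.2) in TAZKo, and Atf3 rose to 51.4 (SD 7.63) in WT, level with Atf5 and Ddit3 within the SDs. Gdf15 stayed last in all 4 groups, with at most 1.76 CPM per kb. The place of Ddit3 depended on the length used, since its level in WT normoxia was 10.7 CPM per kb over all its exons and 18.98 over its longest transcript. By longest transcript Ddit3, not Trib3, was second in WT hypoxia, at 90.9 against 79.97 CPM per kb. In TAZKo hypoxia Ddit3 and Trib3 stood at 122.6 and 120.2, too close to be ordered beside SDs of 6.17 and 7.2 over all exons.

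Other genes of the ATF4 pathway were read beside the 10. The 44 genes comprised amino acid and one-carbon synthesis, amino acid transporters, cytosolic tRNA synthetases, and feedback and partner factors, and all 44 passed the filter. They were listed from general knowledge of the pathway, with earlier results of these libraries known. In those results 2 of them, Cth and Aldh1l2, led the normoxic genotype comparison. The counts below include both genes and are not independent of those results. Between genotypes in normoxia 40 of 44 were higher and 2 lower in TAZKo by the edgeR test, where 15.6% of all genes were higher and 14.9% lower, with a list median of 0.61. In hypoxia 27 were higher and 5 lower, against 15.8% and 16.9% of all genes, with a median of 0.33.

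With hypoxia 32 of the 44 rose and 3 fell in WT, where 26% and 25% of all genes did. In TAZKo 21 rose and 4 fell, against 22.2% and 21.6%. With library size alone the splits of all genes moved to 2966 higher and 4817 lower in WT, from 3750 and 3605, and to 2470 and 4393 in TAZKo, from 3198 and 3111. The difference between the responses was below 0 and past the test in 10 of the 44 and above it in none, though that count ran from 0 in lane 4 alone to 20 in lane 5 alone and reached 20 without WT normoxia library 1 and 18 without WT hypoxia library 1. Averaged effects of hypoxia were called higher in 31 and lower in 3, against 30% and 29.5% of all genes. Averaged effects of TAZKo were called higher in 38 and lower in 3, against 22% and 21.8%.

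Of the 13 genes for amino acid and one-carbon synthesis, 12 were higher and 1 lower in TAZKo in normoxia, and 11 and 1 in hypoxia. The shares of all genes were 15.6% and 14.9% in normoxia, and 15.8% and 16.9% in hypoxia. Cth, which makes cysteine, was at 11.5, 13.9 and 11.6 CPM in WT normoxia and 81.7, 90 and 75.6 in TAZKo normoxia. In hypoxia Cth was at 15.6, 19.95 and 23.2 CPM in WT and at 56.5, 57.2 and 50.4 in TAZKo. It thus rose with hypoxia in WT (log2 0.68, SE 0.131, edgeR adjusted p = 0.000712) and fell in TAZKo (-0.59, SE 0.115, edgeR adjusted p = 0.000992). Aldh1l2, a mitochondrial folate enzyme, had the largest averaged TAZKo difference of the list (2.36, SE 0.046, edgeR adjusted p = 3.73e-13), and 16.85% of its 50-base words occur in other gene models. Asns, the asparagine synthetase long used as an ATF4 target, was higher in TAZKo by 1.17 in normoxia and 0.74 in hypoxia (SE 0.077 and 0.076). Got1, an aspartate aminotransferase, was the one lower in TAZKo, by -0.40 on average (SE 0.051, edgeR adjusted p = 2.53e-05).

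All 9 amino acid transporters were higher in TAZKo in normoxia, where 15.6% of all genes were. In hypoxia 5 were higher and 1 lower, beside 15.8% and 16.9% of all genes. Slc7a11, the cystine importer, stood in WT at 4.11, 7.54 and 6.30 CPM in normoxia and at 11.6, 18.4 and 19.1 in hypoxia. Its TAZKo levels were 27.03, 31.4 and 30.3 CPM in normoxia and 30.94, 30.04 and 30.01 in hypoxia. Like Chac1 and Sesn2 it was nearly level in TAZKo across conditions (log2 0.04, SE 0.168) and higher in hypoxic than in normoxic WT (1.46, SE 0.197, edgeR adjusted p = 3.65e-05). Its partner subunit Slc3a2 was higher in TAZKo in normoxia (0.69, SE 0.076) and lower in hypoxia (-0.40, SE 0.075, edgeR adjusted p = 0.00123), the direction taken by Atf3 and Fgf21.

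The 12 tRNA synthetases moved by small amounts. In normoxia 12 were higher in TAZKo, from 0.25 to 0.64 on the log2 scale, and in hypoxia 8 were, with no gene lower in either. Of all genes 15.6% and 15.8% were called higher there. With hypoxia 9 rose in WT and 5 in TAZKo, beside 26% and 22.2% of all genes. None of the 12 passed the test of the difference between the responses in either direction. Mars, which overlaps Ddit3 on the opposite strand, was higher in TAZKo by 0.59 on average (SE 0.046, edgeR adjusted p = 2.72e-07) and had an averaged hypoxia effect of 0.03 (SE 0.046, edgeR adjusted p = 0.599).

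Feedback and partner factors split more. With hypoxia 8 of the 10 rose in WT and 7 in TAZKo, beside 26% and 22.2% of all genes. Between genotypes 7 were higher and 1 lower in normoxia, beside 15.6% and 14.9% of all genes. In hypoxia 3 were higher and 3 lower, beside 15.8% and 16.9%. Ppp1r15a (GADD34), which directs dephosphorylation of eIF2α, was higher in TAZKo in normoxia (0.37, SE 0.112, edgeR adjusted p = 0.0234) and lower in hypoxia (-0.68, SE 0.105, edgeR adjusted p = 0.000257). Stc2, a secreted glycoprotein, had the lowest response difference of the called list genes (-1.53, SE 0.219, edgeR adjusted p = 0.00267), from 2.98 in WT to 1.45. Vldlr, a lipoprotein receptor, stood apart, with 27 to 35 counts in WT normoxia and 2 in each TAZKo normoxia library, and 213 to 268 against 4 to 8 in hypoxia. Its averaged TAZKo difference of -4.65 (SE 0.196, edgeR adjusted p = 6e-10) rests on counts near the floor, so its size is uncertain.

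**Figure D4:**
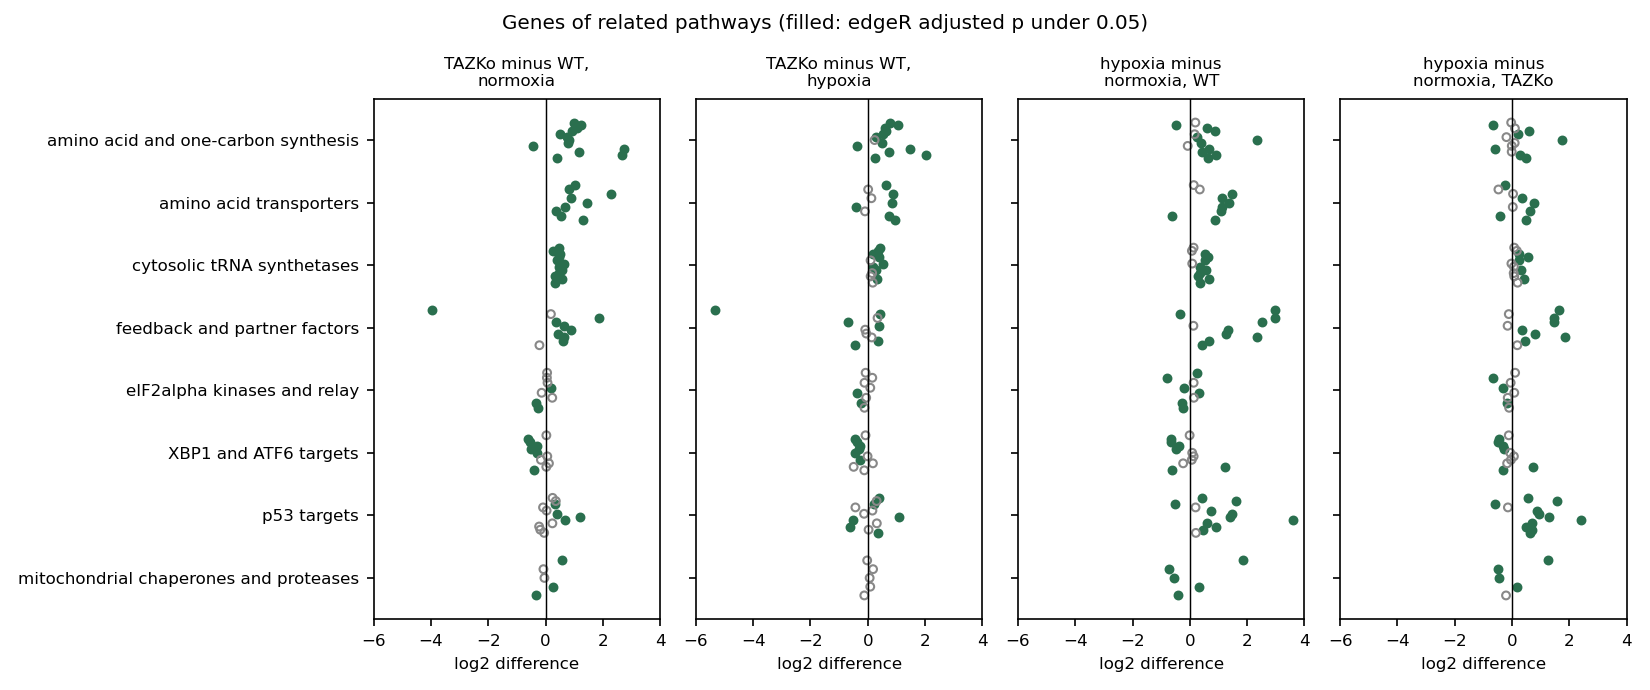
log2 differences of the genes of 8 related lists in 4 comparisons, one point per gene, filled where the edgeR adjusted p was under 0.05. In normoxia (first panel) 40 of the 44 genes in the upper 4 lists are filled to the right of 0, and the point near -4 there is Vldlr.

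Lists for neighbouring pathways gave other counts. Of all genes 15.6% were higher and 14.9% lower in TAZKo in normoxia, and 15.8% and 16.9% in hypoxia. Of the 8 eIF2α kinases and relay genes, 1 was higher and 2 lower in TAZKo in normoxia, and 0 and 2 in hypoxia. Oma1, a mitochondrial protease of the relay from mitochondria to eIF2α, fell with hypoxia by 0.74 on average (SE 0.053, edgeR adjusted p = 5.44e-08), and its averaged genotype effect of 0.10 (SE 0.053) did not pass the test (edgeR adjusted p = 0.139). Eif2ak1 (HRI), the kinase at the end of that relay, was lower in TAZKo by -0.29 (SE 0.039, edgeR adjusted p = 3.95e-05). Of the 11 targets of XBP1 and ATF6, the other arms of the unfolded protein response, none was higher and 6 were lower in TAZKo in either condition, led by Sdf2l1 at -0.53 on average (SE 0.048, edgeR adjusted p = 1.17e-06). With hypoxia 1 of them, Dnajb9, rose in each genotype and 5 fell. Of all genes 26% rose and 25% fell in WT, and 22.2% and 21.6% in TAZKo.

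Because Sesn2, Gdf15 and Atf3 are also known to respond to p53, 12 p53 targets outside the 10 were read beside them. With hypoxia 9 rose and 1 fell in WT, and 10 and 1 in TAZKo, led by Cdkn1a (averaged effect 3.0, SE 0.072, edgeR adjusted p = 7.38e-13). Between genotypes 4 were higher and none lower in normoxia, and 4 and 2 in hypoxia. Their part in the levels of Sesn2, Gdf15 and Atf3 was not tested. Of all genes 26% rose and 25% fell with hypoxia in WT, and 22.2% and 21.6% in TAZKo. Between genotypes 15.6% of all genes were higher and 14.9% lower in normoxia, and 15.8% and 16.9% in hypoxia. Of 5 mitochondrial chaperones and proteases, 2 were higher and 1 lower in TAZKo in normoxia and none passed in hypoxia, and Lonp1 rose with hypoxia by 1.54 on average (SE 0.054, edgeR adjusted p = 3.34e-11) while Hspe1 fell by 0.61 (SE 0.056, edgeR adjusted p = 5.53e-07).

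All tested genes other than the 10 were ranked by the distance of their centred log2 levels from the mean pattern of the 10 over the 12 libraries. That pattern ran from -1.53 to -1.09 in WT normoxia, from -0.18 to -0.02 in TAZKo normoxia, from 0.62 to 0.88 in WT hypoxia and from 0.67 to 0.93 in TAZKo hypoxia. Among the nearest of 14398 genes were Gch1 (0.163), Tnfaip3 (0.186), Apol6 (0.189) and Trim16 (0.22), as root mean square log2 distances. Of the members themselves Ddit3 (0.234) and Fgf21 (0.324) followed Nupr1, and Atf3 (0.925), Atf5 (0.916) and Gdf15 (0.907) lay farthest from their common pattern.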

How the data were processed

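RNA libraries were made with the TruSeq RNA v2 kit, per the labels' protocols, and the authors deposited 1 table of raw read counts per gene for each of 12 libraries. The build is mm10 per the submitters' processing notes. The aligner, counter and strand setting are not given in the sources used here. Of 48709 Ensembl identifiers, 48349 matched a symbol, 360 did not, and each of the 10 genes matched 1 identifier. Counts were filtered with filterByExpr (14408 genes), scaled by TMM and fitted with the edgeR 4.0.16 quasi-likelihood test (R 4.3.3, limma 3.58.1), 1 coefficient per group over all 12 libraries, with 7 contrasts and Benjamini-Hochberg adjustment over all genes tested at a threshold of 0.05. CPM values carry the TMM scaling, and floors cover counting error only, because PCR copies were not told apart. The SE is that of the log2 value in the fit. The fit was tested on simulated data. Gene positions come from GENCODE M21 on GRCm38 and promoters from RefSeq on GRCm38.p6. The members and lists were chosen with earlier results of these data known. The text names all 10 genes and, per list, called genes with the highest or lowest value of a contrast. Not every such gene is named. Those left out include Pycr1, Slc1a5 and Tnfrsf10b, lower with hypoxia on average, and Sars, higher. Asns, Ppp1r15a, Slc7a1 and the marker genes were named outside that rule, after their values were seen. Alternatives were other scalings, DESeq2 1.42.0, other filters, a replicate block, lane, single libraries left out and, chosen after seeing the data, differences of mean CPM. Among the genes nearest in pattern, 1 is not reported here.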

Additional observations from a re-analysis of the deposited data

Results flagged for a closer look

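In 12 listed genes outside the 10, the log2 hypoxia response differed between genotypes by the edgeR test of that difference. As a ratio it was smaller in TAZKo in each case, but the order in CPM was not the same for all. Mean Aldh1l2 went from 51.01 to 96.58 CPM in WT and from 327.2 to 394.7 in TAZKo. Mean Slc3a2 went from 220.4 to 474.6 CPM in WT and from 354.6 to 361.1 in TAZKo. The 12 genes were 10 of the 44 ATF4 pathway genes, 1 of 12 p53 targets and 1 of 5 mitochondrial chaperones and proteases. Of all tested genes 1.71% were called lower and 0.722% higher. None of the 8 eIF2α kinases and relay genes or the 11 XBP1 and ATF6 targets passed. On the log2 scale the difference was -1.53 in Stc2, -1.42 in Slc7a11, -1.27 in Cth, -1.17 in the p53 target Cdkn1a, -1.08 in Slc3a2 and -1.04 in Ppp1r15a. It was -0.96 in Herpud1, -0.77 in Slc7a1, -0.65 in Aldh1l2, -0.60 in Slc6a9, -0.59 in the mitochondrial protease Lonp1 and -0.58 in Mthfd1l.

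Among the 10 genes, Atf3 and Fgf21 had every TAZKo library above WT in normoxia and every TAZKo library below WT in hypoxia. The log2 values were 0.48 and -1.30 for Atf3, and 1.10 and -0.69 for Fgf21. The change of direction was not tested, because the genes had been chosen with it in view.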

How the results depend on the processing

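The calls for the 10 genes in both averaged effects were the same under every other scaling, tool, filter, block, lane covariate and single library left out, and in lane 5 alone, except that the filter at a mean of 5 CPM dropped Gdf15. Lane 4 alone, with fewer libraries, called 0 lower in place of 1 for either averaged effect. Their response differences stayed below 0 in all log2 fits, ranging for Atf5 from -0.50 to -0.05 and for Gdf15 from -1.46 to -0.29. As a difference of mean CPM, that of Ddit3 became 4.6. The averaged genotype effect of Gdf15 took the opposite sign in 8 of 21 fits, from -0.27 without WT normoxia library 2 to 0.28 without WT normoxia library 1, and its difference in normoxia became -0.09 without library 2 and its difference in hypoxia 0.06 in lane 4. The sign of the Atf4 genotype difference in hypoxia turned in 2 of 22 fits, and that of the Atf5 hypoxia response in WT in 1 of 22 (0.10 in lane 5 alone).

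For the 44 pathway genes, library size alone gave 5 lower with hypoxia on average (3 otherwise), and a mean of at least 5 CPM gave 1 lower in TAZKo in normoxia (2 otherwise). Lane 4 alone called 18 higher with averaged hypoxia, 14 higher in WT, and 6 higher and 1 lower in TAZKo. Between genotypes it called 26 higher and 1 lower in normoxia and 6 and 1 in hypoxia. The 10 smaller responses became 16 without a filter, 0 in lane 4, 20 in lane 5, and 8 to 20 with 1 library left out. The cause was not tested. Over all genes, 104 higher and 246 lower responses became 242 and 329 with DESeq2, 400 and 327 without a filter, 304 and 323 in lane 5, 0 and 0 in lane 4, and from 47 and 127 to 415 and 296 with 1 library left out. The first of these lacked TAZKo normoxia library 2 and the second WT hypoxia library 1.

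With the replicate block, 9 members were called higher with hypoxia and 7 in TAZKo as before. As log2 ratios, 14 pathway genes had smaller responses in TAZKo, and over all genes 272 responses were higher and 367 lower. Same-numbered libraries correlated in their residuals by 0.13 on average (-0.09 to 0.37), and differently numbered ones by -0.06 (-0.29 to 0.18). Whether the numbers mark paired libraries is not in the labels, and the main fit treated the libraries as unpaired. Counts of few reads limit Gdf15 and Vldlr.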
